A study of Homo sapiens with 6 samples.

Results

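The fibroblast growth factor (FGF) receptors and ligands are described here in EJ/T24 bladder cancer cells through every probeset whose annotation gives exactly 1 symbol among 10 genes: the receptors FGFR1, FGFR2, FGFR3, FGFR4 and FGFRL1 and the ligands FGF1, FGF2, FGF5, FGF9 and FGF18. This gave 42 probesets of 54613 tested, for 10 of the 19775 genes with a probeset of a single symbol. EJ/T24 is an established human line of invasive bladder cancer, and the study chose it for its low FOXA1, its unmutated FGFR3 and its growth without need of FGF signaling. Expression of mRNA was read on HG-U133 Plus 2.0 arrays, 6 in all, of which 3 were hybridized with RNA from FOXA1 transfected cells and 3 with RNA from control cells. The labels give an empty pUC19 vector as the control, whereas the methods describe FOXA1 in pcDNA3 beside an empty vector. If both hold, the groups differ in vector as well as in FOXA1, and these cannot be told apart. Both groups were grown in medium with serum and exposed to Lipofectamine.

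FGFs are secreted proteins that bind receptor tyrosine kinases on the cell surface, with heparan sulfate chains as a cofactor. Ligand binding pairs the receptors, which then signal through the adaptor FRS2 to RAS and ERK. FGFR3 is the family member best known in the bladder, where activating mutations and high expression are typical of low-grade papillary tumors, and FOXA1 is a forkhead transcription factor of the urothelium and other epithelia.

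The methods describe transfection in triplicate, but neither they nor the labels say that each array of a group came from its own culture, so the p-values cover array to array spread, which may be technical. With 3 arrays a group, precision is limited by their number. Values are MAS5 signals, a background corrected intensity for each probeset on a linear scale. Median signals ran between 14.4 and 17.5 over the FOXA1 transfected arrays and between 12.3 and 16.1 over the control arrays. The actin 3' to 5' ratio, which is higher where RNA is shorter or less fully copied, was 2.10 to 2.52 in FOXA1 transfected and 1.54 to 1.92 in control arrays, without overlap. The part of this ratio in the results below was not tested. The FOXA1 probeset 204667_at had signals of 38.9, 34.8 and 31.9 in FOXA1 transfected arrays and 21.8, 24.4 and 21.0 in control arrays, a log2 difference of 0.65 (limma, adjusted p = 0.307). That direction, FOXA1 transfected minus control by the labels, is followed throughout. It opposes the study's own list of changed genes for all 50 probesets in it, and the list holds no probeset of the 10 genes. Whether the labels or the list has the groups reversed was not tested. A second FOXA1 probeset, 237086_at, was near background with a difference of -0.54 (adjusted p = 0.80), and which of them can read RNA from the plasmid was not stated in the sources used here. Neither FOXA1 probeset passed the test, so a rise of FOXA1 mRNA was itself not called on these arrays. The study checked FOXA1 in transfected cells by western blot. Of 12 epithelial and urothelial markers, 5 lay above the median signal, but CDH1 and UPK3A did not, and all 4 mesenchymal markers did. Of 12 markers of leukocytes, endothelium, muscle and nerve, 9 lay at or under the median signal, and the signals of all 12 summed to 148.7 to 161.4 in FOXA1 transfected and 135.7 to 160.6 in control arrays.

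No FGF receptor or ligand passed the test for a difference between FOXA1 transfected and control cells. These are bulk cultures, in which fewer cells of a type and less RNA per cell cannot be told apart, and the share of cells that took up the plasmid is not given. At an adjusted p of 0.05, 0 of the 42 probesets were called, where the background over all probesets was 0.0586% (32 probesets, 21 higher and 11 lower in FOXA1 transfected cells). At an unadjusted p of 0.05, 5 of the 42 passed, against 11.3% of all probesets. The smallest adjusted p among the 42 was 0.248. In 7 of the 42 probesets (16.7%) the lowest FOXA1 transfected array exceeded the highest control array, and in 0 the reverse held, where 10.5% of all probesets did the first and 5.86% the other, or 16.4% in all. The share without overlap was therefore near the background. Each of the 7 has an exact permutation p of 0.1 (two-sided), the smallest that 3 arrays against 3 can give.

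Of the 42 probesets, 17 had a mean signal above 14.5, the median of all probesets, and 25 lay at or under it and are called near background. Of these 25, 12 were at or under 3.5, the 20th percentile of all signals, where values have no order. FGF2 and FGF5 were above the median with every probeset, FGFR1 with 6 of 7, FGFR2 with 3 of 11, and FGFR4, FGFRL1 and FGF9 with 1 probeset each. FGFR3, FGF1 and FGF18 were near background with all of theirs. The standard error of a log2 difference had a median of 0.18 for the 17 brighter probesets and 0.79 for the 25 near background. Probesets differ in how strongly they bind, so the signals give no order of mRNA levels between genes, and each probeset is compared only with itself.

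**Figure D1:**
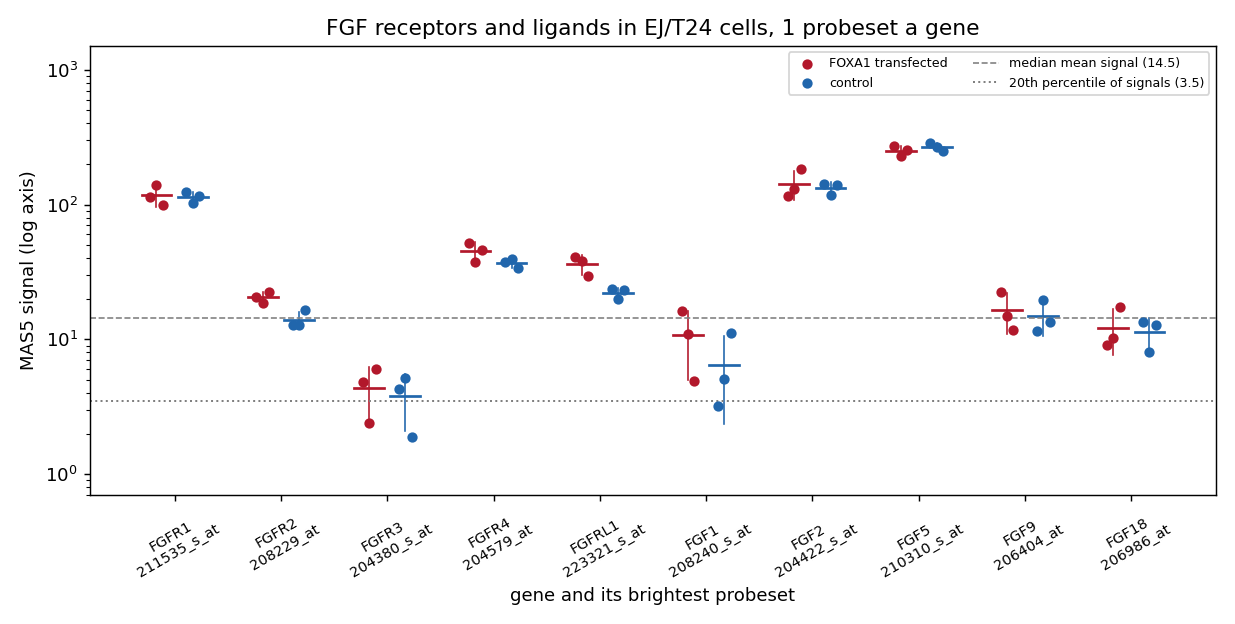
MAS5 signal (log axis) of the brightest probeset of each of the 10 genes, with 1 point per array, the mean as a bar and the SD as a line, FOXA1 transfected arrays in red left of control arrays in blue. FGFR2 and FGFRL1 show no overlap between groups, and the means of FGFR3, FGF1 and FGF18 lie under the median mean signal of 14.5.

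More differences lay above 0 than below it under each scaling, by a margin that depended on the scaling. Of the 42, 31 were above 0 (73.8%, against 58.2% of all probesets), with a median log2 difference of 0.23 against 0.081 over all probesets. With quantile normalization 26 of the 42 were above 0, where 49.5% of all probesets were, and with each array centred on its median 22 were, where 40.5% of all probesets were. Among the 17 brighter probesets the median difference was 0.13, against 0.034 for all probesets above the median signal, and 4 (23.5%) did not overlap, all of them higher, against 21.8% of those probesets (12.9% higher and 8.95% lower).

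**Figure D2:**
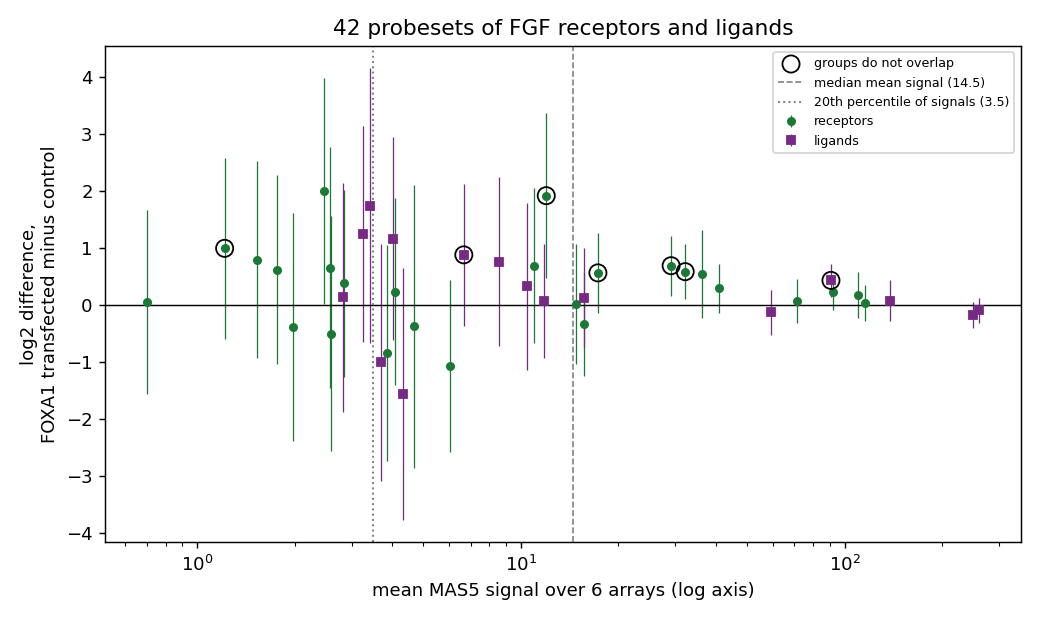
Log2 difference, FOXA1 transfected minus control, of the 42 probesets with its 95% interval (limma) against the mean signal over 6 arrays (log axis), receptors as green circles and ligands as purple squares, rings marking the 7 without overlap. Intervals are wide left of the median mean signal of 14.5, and the 4 ringed probesets to its right have differences of 0.43 to 0.69.

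FGFR1, a receptor for many FGFs that is widespread in mesenchymal cells and lies on chromosome 8, was read above the median signal by 6 of its 7 probesets. The brightest, 211535_s_at, had 113.9, 140.7 and 98.8 in FOXA1 transfected arrays and 123.5, 102.4 and 116.3 in control arrays. The groups overlapped, averaging 117.8 ± 21.2 in FOXA1 transfected and 114.1 ± 10.7 in control cells (SD, n = 3 each), a log2 difference of 0.04 (SE 0.15, 95% interval -0.29 to 0.36, adjusted p = 0.953). Its interval bounds the fold between 0.82 and 1.28. Probeset 222164_at gave 112.7, 100 and 134.4 in FOXA1 transfected arrays against 134.8, 83 and 93.9 in control arrays. Probeset 226705_at gave 108.0, 100 and 88.8 against 89.5, 73.7 and 91.6, and 215404_x_at gave 77.9, 58.1 and 82.4 against 78.8, 70.4 and 58.6, FOXA1 transfected arrays first in each pair. These 3 probesets overlapped between groups as well, with differences of 0.18, 0.22 and 0.07 (adjusted p = 0.766, 0.591 and 0.926).

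The dimmer FGFR1 probesets had larger differences. Probeset 207937_x_at, whose suffix marks probes that can bind other transcripts, had 44.9, 34.3 and 36.9 in FOXA1 transfected arrays and 24.6, 27.4 and 25 in control arrays. Here no array overlapped, the groups averaging 38.7 ± 5.52 in FOXA1 transfected and 25.67 ± 1.51 in control cells, a difference of 0.58 (SE 0.22, 95% interval 0.11 to 1.06, adjusted p = 0.335, exact permutation p = 0.1). Probeset 210973_s_at had 35.6, 41.3 and 46.9 in FOXA1 transfected arrays, inside the control values of 16.5, 26.3 and 51.5 (difference 0.54, SE 0.35, adjusted p = 0.607). This difference was 0.16 without control replicate 1 and 0.98 without control replicate 3 (adjusted p = 0.923 and 0.203). Near background, 207822_at differed by 0.69 (SE 0.62). All 7 FGFR1 differences were above 0, also after quantile normalization, but with each array centred on its median only 4 were, and 211535_s_at, 222164_at and 215404_x_at turned to -0.15, -0.0063 and -0.12.

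FGFR2, the receptor whose epithelial splice form answers to FGFs made by the stroma, lies on chromosome 10 and had the most probesets, 11. Probeset 208229_at, its brightest, had 20.5, 18.7 and 22.6 in FOXA1 transfected arrays and 12.7, 12.9 and 16.4 in control arrays. The groups did not overlap and averaged 20.6 ± 1.95 in FOXA1 transfected and 14 ± 2.08 in control cells (SD, n = 3 each). The difference was 0.56 (SE 0.32, 95% interval -0.14 to 1.27, adjusted p = 0.547, exact permutation p = 0.1), so the limma interval includes 0. The other brighter FGFR2 probesets did not follow it. Probeset 208228_s_at had 22, 9.1 and 11.9 in FOXA1 transfected arrays against 14.8, 15.4 and 21.0 in control arrays (difference -0.34, adjusted p = 0.808). Probeset 211398_at had 21.3, 10.0 and 12.5 against 23.7, 8.6 and 12.7, FOXA1 transfected first (difference 0.01, adjusted p = 0.995). The remaining 8 FGFR2 probesets were at or under 3.5. Among them 240913_at did not overlap, with 1.3, 1.8 and 1.7 in FOXA1 transfected and 0.7, 0.6 and 1.2 in control arrays, all of them values without order, and 211401_s_at had the largest difference of the 42 (1.995, SE 0.90, adjusted p = 0.438) on signals of 0.9 to 7.6 in FOXA1 transfected and 0.6 to 0.9 in control arrays.

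FGFR3, the receptor most often mutated in bladder tumors, lies on chromosome 4 and was near background with both probesets. Probeset 204380_s_at had 4.8, 2.4 and 6.0 in FOXA1 transfected arrays and 4.3, 5.2 and 1.9 in control arrays, which overlapped throughout. Its means were 4.4 ± 1.83 in FOXA1 transfected and 3.8 ± 1.71 in control cells, a difference of 0.23 (SE 0.74, 95% interval -1.40 to 1.87, adjusted p = 0.939). That interval allows any fold between 0.379 and 3.65, so at this signal a change of FGFR3 mRNA within that range was not excluded in either direction. Probeset 204379_s_at had 0.7, 7.5 and 2.4 in FOXA1 transfected arrays and 1.5, 0.9 and 2.4 in control arrays (difference 0.65, SE 0.96, adjusted p = 0.845), with a mean under the 20th percentile of signals. The 250 bases before the FGFR3 start are shown because FGFR3 is the receptor that the study sets beside FOXA1. They are RefSeq sequence of GRCh38.p14, chr4:1793043-1793292, plus strand, with each CG in capitals.
FGFR3 promoter: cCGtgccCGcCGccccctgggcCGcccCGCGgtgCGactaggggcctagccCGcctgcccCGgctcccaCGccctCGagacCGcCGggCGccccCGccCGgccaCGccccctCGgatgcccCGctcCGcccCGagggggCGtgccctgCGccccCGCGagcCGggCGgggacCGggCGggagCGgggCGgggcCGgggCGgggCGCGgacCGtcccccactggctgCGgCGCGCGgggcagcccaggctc
It holds 40 CG pairs, against a median of 11 over 35114 windows of this length before annotated starts (quartiles 3 and 23). Neither TGTTTAC nor the shorter GTTTAC within it occurs there on either strand. TGTTTAC is a sequence that forkhead factors such as FOXA1 are known to bind.

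FGFR4, the receptor for bile acid regulating FGF19 in liver, lies on chromosome 5 and was read above the median signal by 1 of 4 probesets. Probeset 204579_at had 52.1, 37.4 and 46.4 in FOXA1 transfected arrays and 37.3, 39.4 and 33.7 in control arrays. The groups overlapped and averaged 45.3 ± 7.41 in FOXA1 transfected and 36.8 ± 2.88 in control cells, a difference of 0.29 (SE 0.20, adjusted p = 0.624). Near background, 211237_s_at did not overlap: 20.9, 17.3 and 15.8 in FOXA1 transfected arrays against 8.4, 7.9 and 1.6 in control arrays. Its means were 18.0 ± 2.62 in FOXA1 transfected and 5.97 ± 3.79 in control cells, a difference of 1.92 (SE 0.66, 95% interval 0.47 to 3.36, adjusted p = 0.302, exact permutation p = 0.1), which fell to 1.13 without control replicate 3. The 2 other FGFR4 probesets, also near background, were below 0, at -1.06 for 1554962_a_at (adjusted p = 0.604) and -0.84 for 1554961_at (adjusted p = 0.763). The direction was therefore not shared across the probesets of FGFR4.

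FGFRL1, an FGF receptor without the tyrosine kinase domain, lies on chromosome 4. Probeset 223321_s_at had 40.8, 37.9 and 29.4 in FOXA1 transfected arrays and 23.6, 19.9 and 23.1 in control arrays. Every FOXA1 transfected array lay above every control array, and they averaged 36.0 ± 5.92 in FOXA1 transfected and 22.2 ± 2.01 in control cells (SD, n = 3 each). The difference was 0.69 (SE 0.24, 95% interval 0.16 to 1.21, adjusted p = 0.304, exact permutation p = 0.1), a fold of 1.61 with a 95% interval of 1.12 to 2.32. This is the largest difference among the 17 brighter probesets. At this probeset it stayed above 0 under every alternative run, from 0.51 with median centring to 0.83, with adjusted p from 0.175 to 0.589, so no setting called it. The other probeset, 223648_s_at, was near background, with 0.6, 12.2 and 2.1 in FOXA1 transfected arrays and 2.1, 1.7 and 9.4 in control arrays (difference -0.38, SE 1.13, adjusted p = 0.935).

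RefSeq windows of 250 bases before the start were matched for 8 of the 10 genes (17 windows, since several genes have more than 1 start), and not for FGFR1 and FGF9. The full TGTTTAC was in 0 of the 17, on either strand, and in 2.98% of all 35114 windows. The shorter GTTTAC, which every TGTTTAC contains, was in 1 of the 17, that of FGFRL1, a share near the 6.34% of all windows. The FGFRL1 window is shown as the 1 with GTTTAC (GRCh38.p14, chr4:1012214-1012463, plus strand). The GTTTAC lies on the opposite strand, in capitals, 177 bases before the start.
FGFRL1 promoter: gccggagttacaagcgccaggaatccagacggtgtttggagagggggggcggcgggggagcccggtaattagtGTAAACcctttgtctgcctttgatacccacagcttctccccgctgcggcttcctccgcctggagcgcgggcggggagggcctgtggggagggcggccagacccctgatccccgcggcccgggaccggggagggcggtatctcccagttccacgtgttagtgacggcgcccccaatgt
No forkhead sequence other than TGTTTAC and GTTTAC was searched for. A match is a run of letters and not a measured binding site, and these windows are a small part of the sequence around a gene.

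Of the ligands, FGF2 and FGF5 were above the median signal with every probeset. FGF2, basic fibroblast growth factor on chromosome 4, is made by many mesenchymal and tumor cells. Its probeset 204422_s_at had 116.0, 129.4 and 183.1 in FOXA1 transfected arrays and 142.8, 118.7 and 138.7 in control arrays. The groups overlapped, averaging 142.8 ± 35.5 in FOXA1 transfected and 133.4 ± 12.9 in control cells, a difference of 0.08 (SE 0.16, 95% interval -0.28 to 0.43, adjusted p = 0.904) that turned to -0.11 with median centring. The interval bounds the fold between 0.822 and 1.35. Probeset 204421_s_at had 56.8, 67.5 and 46.2 in FOXA1 transfected arrays against 68.6, 62.0 and 54.6 in control arrays, also with overlap (difference -0.13, SE 0.18, adjusted p = 0.833).

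FGF5, a ligand known for ending the growth phase of the hair follicle, lies on chromosome 4, and its 3 probesets did not move together. Probeset 210310_s_at had 270.6, 230.6 and 253.3 in FOXA1 transfected arrays and 286.7, 267.9 and 249.4 in control arrays, with overlap (251.5 ± 20.1 against 268.0 ± 18.7, difference -0.09, SE 0.10, 95% interval -0.31 to 0.12, adjusted p = 0.773). Probeset 208378_x_at had 257.4, 222.8 and 220.4 in FOXA1 transfected arrays and 268.4, 239.0 and 282.4 in control arrays, with overlap (difference -0.17, SE 0.10, adjusted p = 0.572). Probeset 210311_at went the other way, at 117.2, 95.9 and 99.9 in FOXA1 transfected arrays against 80.9, 73.6 and 76.9 in control arrays. Its groups did not overlap (104.3 ± 11.3 in FOXA1 transfected and 77.1 ± 3.66 in control cells), and the difference of 0.43 (SE 0.13, 95% interval 0.15 to 0.72, adjusted p = 0.248, exact permutation p = 0.1) had the smallest p of the 42. It corresponds to a fold of 1.35 with a 95% interval of 1.11 to 1.64, and was 0.25 with median centring.

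A ratio of FGF5 probesets on the same array is unchanged when all of its signals are multiplied by a factor, as in median centring. The log2 ratio of 210311_at to 210310_s_at was -1.21, -1.27 and -1.34 in FOXA1 transfected arrays and -1.83, -1.86 and -1.70 in control arrays. The ratio was 0.52 higher in FOXA1 transfected cells without overlap, and 0.60 higher when 208378_x_at was the denominator, also without overlap. This ratio was chosen after its values were seen and has no test. No FGF5 probeset passed the test, and the ratio does not say which probeset differed. Such a ratio within FGFR1, 207937_x_at to 211535_s_at, was 0.55 higher in FOXA1 transfected cells but overlapped. That within FGFR4, 211237_s_at to 204579_at, was 1.63 higher without overlap, with 1 of its probesets near background. For FGF5, FGFR1 and FGFR4 the numerator was picked as a probeset without overlap, higher in FOXA1 transfected arrays, and this choice favors a higher ratio. These ratios have no test. Within FGF2, where neither probeset was without overlap, the ratio of 204422_s_at to 204421_s_at was 0.21 higher and overlapped.

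**Figure D3:**
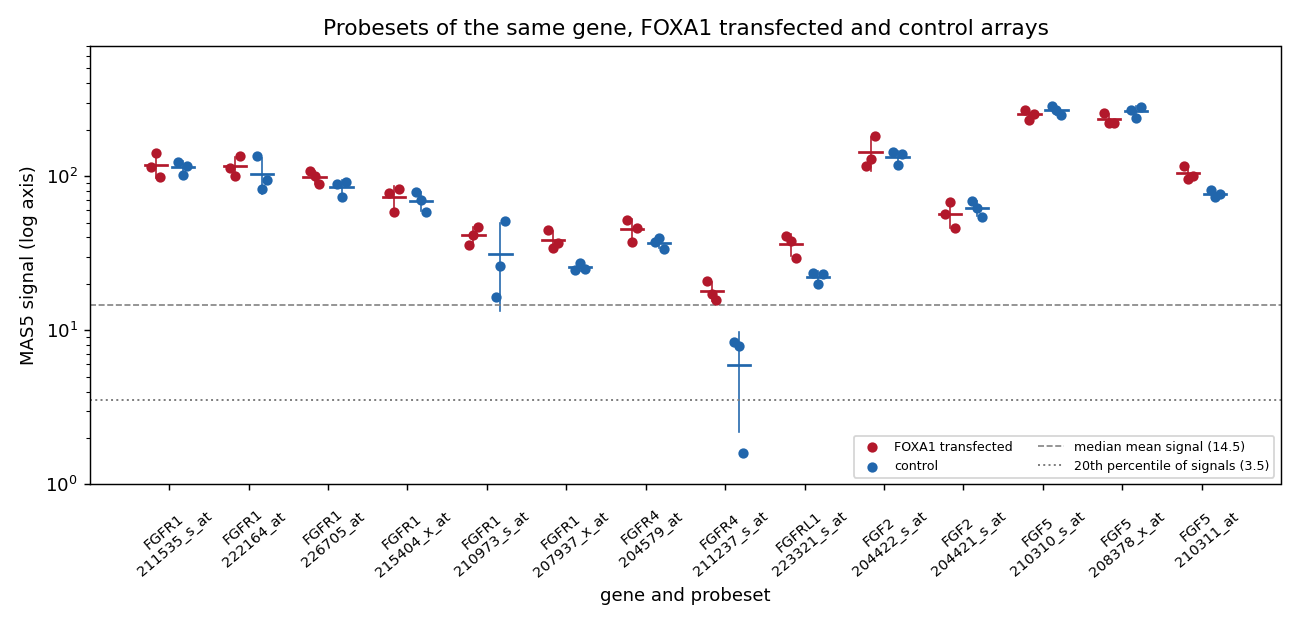
MAS5 signal (log axis) of probesets of the same gene for FGFR1, FGFR4, FGFRL1, FGF2 and FGF5, with 1 point per array, the mean as a bar and the SD as a line, FOXA1 transfected arrays in red left of control arrays in blue. For FGF5 the first 2 probesets overlap between groups, while 210311_at has 95.9 to 117.2 in FOXA1 transfected and 73.6 to 80.9 in control arrays.

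RefSeq annotates 2 starts for FGF5, whose windows are shown because its probesets disagreed (GRCh38.p14, plus strand, chr4:80266338-80266587 for the first and chr4:80268018-80268267 for the other, each CG in capitals).
FGF5 start 1: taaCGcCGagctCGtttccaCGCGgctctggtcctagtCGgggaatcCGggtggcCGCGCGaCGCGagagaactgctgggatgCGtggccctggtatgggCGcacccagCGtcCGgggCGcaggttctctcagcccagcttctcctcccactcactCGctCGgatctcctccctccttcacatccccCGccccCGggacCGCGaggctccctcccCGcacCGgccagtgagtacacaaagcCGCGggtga
FGF5 start 2: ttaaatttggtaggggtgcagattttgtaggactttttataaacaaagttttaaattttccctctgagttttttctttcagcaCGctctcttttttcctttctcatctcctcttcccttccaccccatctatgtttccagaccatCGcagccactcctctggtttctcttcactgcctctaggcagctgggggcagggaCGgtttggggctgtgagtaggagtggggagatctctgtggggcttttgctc
The first holds 27 CG pairs and the other 3. Which transcript each FGF5 probeset reads, and how far from its 3' end, was not stated in the sources used here, and the part of the actin 3' to 5' ratio in this contrast was not tested.

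The remaining ligands were near background, apart from 1 probeset of FGF9. FGF9, a ligand of chromosome 13 that acts between epithelium and mesenchyme in development, had 22.5, 14.9 and 11.8 in FOXA1 transfected arrays and 11.5, 19.6 and 13.5 in control arrays at 206404_at. These overlapped, with a difference of 0.13 (SE 0.39, adjusted p = 0.938) that turned to -0.03 after quantile normalization and -0.06 with median centring. Its other probeset, 239178_at, was under 3.5. FGF1, acidic fibroblast growth factor, which can bind every FGF receptor kinase, was near background with 3 probesets whose differences ran between -1.56 and 1.24. Its brightest, 208240_s_at, had 16.2, 11 and 4.9 in FOXA1 transfected and 3.2, 5.1 and 11.1 in control arrays (difference 0.76, adjusted p = 0.723). FGF18, a ligand known for bone and cartilage growth, was near background with 6 probesets, of which 214284_s_at did not overlap (8.4, 7.6 and 9.8 in FOXA1 transfected and 5.7, 3.6 and 4.9 in control arrays). Its difference was 0.88 (SE 0.56, adjusted p = 0.602), and the other FGF18 probesets ran between -1.01 and 1.17 with overlap.

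In likeness of pattern over the 6 arrays, the log2 signal of FGFR1 (211535_s_at) correlated most closely with NAPEPLD (Pearson's r = 0.996), TSFM (0.992) and PLEKHO1 (0.990) among 22644 other probesets above the median signal. For FGF5 (210310_s_at), MBP (0.988), CFLAR (0.987) and SDC4 (0.986) were closest of 22647. These are descriptions over 6 arrays that share their scaling, and 17 probesets passed 0.95 for FGFR1 and 56 for FGF5. With so many probesets compared over 6 arrays, correlations this high can arise without any relation.

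In the wider FGF pathway 1 gene passed the test. Of 76 listed genes 72 were measured, each by its brightest probeset, and 38 were above 0 and 34 below, with a median log2 difference of 0.03 against 0.074 over all genes. Past an adjusted p of 0.05 was 1 of the 72, where the background was 0.091% of genes, and 14 (19.4%) did not overlap, against 19.7% of genes. The called gene was in the study's own list from these arrays, and the pathway lists were chosen with earlier results known. The 1 call is therefore no sign of an excess. Of the 17 other FGF ligands, 13 were near background and 0 were called, with a median of 0.44 and differences between -2.17 for the endocrine ligand FGF21 (1.53 ± 0.321 in FOXA1 transfected and 7.37 ± 3.72 in control cells, adjusted p = 0.288) and 1.46 for FGF19, both of them near background. Among the 17 ligands, 3 did not overlap (17.6%, against 19.7% of all genes), 2 higher and 1 lower in FOXA1 transfected cells. Of 14 co-receptors and ligand carriers 0 were called, with a median of -0.01. The smallest p among them was that of GPC1, near background, with 1.37 ± 0.503 in FOXA1 transfected and 6.93 ± 4.05 in control cells (difference -2.24, adjusted p = 0.303). It was the 1 gene of the 14 without overlap (7.14%, against 19.7% of all genes). The syndecan SDC2, a heparan sulfate carrier, averaged 533.3 ± 33.3 in FOXA1 transfected and 538.3 ± 34.2 in control cells (difference -0.01, SE 0.09), and IL17RD, an inhibitor of FGF signaling, had -0.33 (adjusted p = 0.481).

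Heparan sulfate synthesis, which makes the cofactor of ligand binding, had 0 of 12 called and a median of 0.00. Its smallest p belonged to the epimerase GLCE, with 156.8 ± 22.1 in FOXA1 transfected and 191.7 ± 3.45 in control cells without overlap (difference -0.30, adjusted p = 0.354). Without overlap were 3 of the 12 (25%, against 19.7% of all genes), 1 higher and 2 lower in FOXA1 transfected cells. Adaptors and signal transducers had 0 of 11 called and a median of -0.05. The adaptor GRB2 (623.9 ± 29.8 in FOXA1 transfected and 527.5 ± 9.43 in control cells, difference 0.24, adjusted p = 0.269) and the ubiquitin ligase CBL (366.4 ± 9.41 in FOXA1 transfected and 308.1 ± 14.7 in control cells, difference 0.25, adjusted p = 0.285) did not overlap and were higher in FOXA1 transfected cells. The phosphatase PTPN11 (1898 ± 124 in FOXA1 transfected and 2107 ± 41.8 in control cells, difference -0.15, adjusted p = 0.478) and the docking protein GAB1 (40.5 ± 3.23 in FOXA1 transfected and 49.4 ± 0.929 in control cells, difference -0.29, adjusted p = 0.559) did not overlap and were lower. Thus 4 of the 11 (36.4%) did not overlap, 2 in each direction. The share was 19.7% over all genes and 21.8% over probesets above the median signal, where all 11 lay.

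ERK feedback genes and targets, which ERK signaling switches on, had 0 of 16 called and a median of 0.04. What drives ERK in these cells, chosen by the study as not dependent on FGF signaling, was not tested. The smallest p was that of FOSL1, an AP-1 subunit downstream of ERK, with 148.4, 193.0 and 171.7 in FOXA1 transfected arrays and 83.4, 74.5 and 117.0 in control arrays. Its groups did not overlap, and its difference of 0.92 (SE 0.17) had an adjusted p of 0.0941, which became 0.039 when probesets near background were left out. The ERK phosphatase DUSP6 overlapped at 979.2, 911.9 and 876.2 in FOXA1 transfected arrays against 1096.3, 1051.7 and 869.9 in control arrays (difference -0.12, adjusted p = 0.689). Without overlap were 2 of the 16 genes (12.5%, against 19.7% of all genes), both higher in FOXA1 transfected cells. They were FOSL1 and the feedback inhibitor SPRY1 (40.6, 38.1 and 40 in FOXA1 transfected arrays, 32.4, 35.3 and 36.7 in control arrays, difference 0.19, adjusted p = 0.756). The related SPRY2, SPRY3 and SPRY4 overlapped, with differences of -0.18, 0.21 and 0.03 (adjusted p = 0.577, 0.902 and 0.936).

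The called gene was SHISA3. In Xenopus, the Shisa protein holds FGF and Frizzled receptors back in the endoplasmic reticulum. SHISA3 (229485_x_at) had 114.9, 64.4 and 97.1 in FOXA1 transfected arrays and 21.0, 20.2 and 17.8 in control arrays. The groups did not overlap, and the difference of 2.19 (SE 0.23, 95% interval 1.68 to 2.70) passed at an adjusted p of 0.00818. The study picked SHISA3 from these same arrays, so the call is not independent evidence. Its list gives this probeset as lower with FOXA1, the opposite of the direction by the labels. The probes can bind other transcripts. The call was lost without the intensity trend, with signals floored at the 20th percentile, and without FOXA1 replicate 1, control replicate 2 or control replicate 3. The related SHISA2 averaged 2127 ± 124 in FOXA1 transfected and 2160 ± 206 in control cells (difference -0.02, adjusted p = 0.957).

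**Figure D4:**
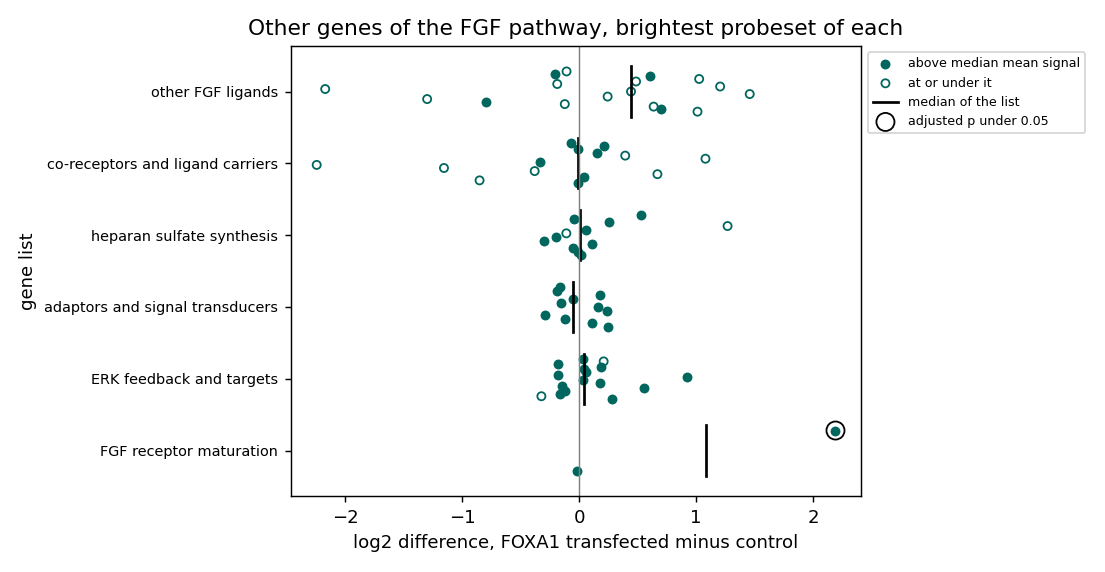
Log2 difference, FOXA1 transfected minus control, of the brightest probeset of each of 72 other FGF pathway genes in 6 lists, filled where the mean signal is above the median and open where it is not, with a black line at each list's median. SHISA3 at 2.19 is the only ringed gene (adjusted p under 0.05), and wide scatter is mostly among open points.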

How the data were processed

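The authors deposited an intensity for each probeset on each array, the linear MAS5 signal that the methods and labels name. The methods go on to RMA, log2 and SAM, whereas the deposited signals are without RMA. SAM was not run, as the program was not at hand. No genome build was stated in the sources used here. Groups and replicate numbers came from the labels. All value columns were mapped, and detection calls were not used. Of 54675 probesets, 62 array controls were left out. The 25 signals at 0, none in the 42 probesets, were set to 0.1 before log2 conversion. The two-sided test was that of limma (version 3.58.1, R version 4.3.3), by lmFit and eBayes with the trend option, after the script was tested on simulated data. Its p-values were adjusted by Benjamini and Hochberg over the 54613 probesets, with a threshold of 0.05. Exact permutation tests ran over 20 splits of the arrays.

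Symbols came from GEO's platform annotation: 41091 probesets have 1 symbol, 1801 several and 11721 none. All 42 matched a current gene by Entrez number. The genes, lists and rules were chosen with earlier results of these data known. Values per array are given for probesets above the median signal, those without overlap and each receptor's brightest, and from the pathway lists genes were named among the 4 with the smallest p, with DUSP6, SPRY1, SPRY2, SPRY3, SPRY4, GAB1, SDC2, SHISA2 and FGF19 named after their values were seen. ANOS1, NDST2, FRS2 and CRK had no probeset of a single symbol. Promoter sequences are from RefSeq.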

Additional observations from a re-analysis of the deposited data

How the results depend on the processing

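The 0 calls among the 42 probesets held under every alternative run, including each array left out in turn. The number called among all probesets did not: 32 became 1 without the intensity trend, 7 with each array centred on its median, 174 with probesets near background left out, and 4 to 76 with 1 array left out. With so few called in any run, 0 of the 42 says little about whether these genes changed. Probesets of the 10 genes without overlap were 7, became 4 with probesets near background left out, and 9 to 11 with 1 array left out, where fewer arrays make overlap rarer. With median centring 6 were higher and 1, FGF5 208378_x_at, was lower. Pathway genes past the threshold were 1, became 0 without the trend and with signals floored at the 20th percentile, 2 with probesets near background left out, and 0 to 1 with 1 array left out.

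Median centring moved the median difference of all probesets to -0.10, from 0.081 as reported, and turned FGFR1 211535_s_at to -0.15, FGFR1 222164_at to -0.0063, FGFR1 215404_x_at to -0.12, FGFR2 211398_at to -0.17, FGF2 204422_s_at to -0.11 and FGF9 206404_at to -0.056. Quantile normalization turned FGFR2 211398_at to -0.17 and FGF9 206404_at to -0.0301. With the floor every FGFR2 240913_at value was at it, so the difference was 0. With 1 array left out the sign changed for FGFR1 211535_s_at (-0.10 to 0.15), FGFR1 215404_x_at (-0.0493 to 0.22), FGFR2 211398_at (-0.32 to 0.41), FGF2 204422_s_at (-0.12 to 0.21), FGF2 204421_s_at (-0.26 to 0.0106) and FGF9 206404_at (-0.13 to 0.34). The cause was not tested. With the median over a gene's probesets in place of the brightest, which brings in probesets near background, FGFR2 had 0.38, FGFR4 -0.28, FGFRL1 0.16 and FGF9 0.93, against 0.56, 0.29, 0.69 and 0.13, and FGF2 had -0.03 against 0.08. The other values of the 20 probesets described in full kept their direction, and none crossed the threshold.

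The labels give both groups replicate numbers 1 to 3. Samples with the same number deviated together at r of 0.044 to 0.164, not all above 0.1, so the numbers were not taken to pair the samples, although 6 of 6 arrays correlated best with their own number. With the replicate number as a block 85 probesets were called, 40 higher and 45 lower, and 0 of the 42.

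Signal near background limits FGFR3, FGF1, FGF18 and most FGFR2 probesets, and the median SE of a log2 difference was 0.79 over the 25 probesets near background, against 0.18 over the 17 brighter ones.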
